A study of Homo sapiens with 2 samples.

Results

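Transcripts of 10 genes of the integrated stress response and of the unfolded protein response were followed across single WaGa cells. They were taken by name from the 32742 genes of the expression table, and all 10 were found there. The transcription factor genes were ATF4, ATF5, ATF3 and DDIT3, the regulators TRIB3 and NUPR1, the enzyme genes ASNS and CHAC1, and, from the endoplasmic reticulum (ER) arm, XBP1 and HSPA5. WaGa, an established human line of Merkel cell carcinoma (a neuroendocrine cancer of the skin), grows in suspension and was kept in RPMI medium. The group given domatinostat, an inhibitor of class I histone deacetylases supplied in DMSO, was seeded in 6-well plates, and the other group is labelled as having no treatment. The labels give neither the dose nor the length of exposure, and they do not say whether the untreated cells received the solvent. Each group was 1 library, made with the 10x Genomics 3′ v2 chemistry, which counts unique molecular identifiers (UMIs) at the 3′ end of polyadenylated transcripts.

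In the integrated stress response, kinases that sense amino acid shortage, ER stress, double-stranded RNA or haem shortage phosphorylate the translation factor eIF2. General translation then slows, while the messages of ATF4, ATF5 and DDIT3 are translated better through their upstream open reading frames, so that much of this control does not show in transcript levels. ATF4 and its partners switch on genes of amino acid supply and of redox balance. The unfolded protein response reaches the same kinase step through PERK, and in parallel uses IRE1, which splices the XBP1 message, and ATF6, which raises ER chaperones. Secretory cells, which pass much protein through the ER, lean on it.

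There were 6679 cells labelled treated, with 60160108 UMIs in all and a median of 8578 per cell, and 4137 cells labelled untreated, with 45562976 UMIs in all and a median of 11125 per cell. The share of UMIs from mitochondrial genes was 4.74% in the library labelled treated and 5.09% in the library labelled untreated. All 12 Merkel cell carcinoma markers were detected in both libraries, with a summed level of 3108 counts per 1000000 counts (CPM) in the library labelled treated and 3255 CPM in the library labelled untreated. Markers of T cells, endothelial cells and myeloid cells each summed to at most 0.731 CPM in the library labelled treated and at most 1.54 CPM in the library labelled untreated. Keratinocyte markers, nearly all of it KRT10 and SFN, summed to 359 CPM in the library labelled treated and 403 CPM in the library labelled untreated. B cell markers summed to 4.49 CPM in the library labelled treated and 9.88 CPM in the library labelled untreated, and melanocyte markers to 0.366 CPM in the library labelled treated and 3.12 CPM in the library labelled untreated. Fibroblast markers summed to 17.9 CPM in the library labelled treated and 29.3 CPM in the library labelled untreated, and the part of such sums in the results was not tested. Cells are tied to their group only by the treatment word in the cell name. CDKN1A, a cell cycle inhibitor gene known to be induced when histone deacetylases are blocked, had 39.4 CPM in the library labelled treated and 97.9 CPM in the library labelled untreated. H1F0, a linker histone gene known for the same, had 167 CPM in the library labelled treated and 214 CPM in the library labelled untreated, so every direction given here follows the labels alone.

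Most of the 10 genes had lower levels in the library labelled treated, and the ER chaperone gene HSPA5 was the only one higher there beyond its counting interval, though lower there among cells called G2/M and with an interval that holds 1 among the deepest cells. NUPR1, ATF3, CHAC1, ATF5 and TRIB3 were at least 1.5-fold lower, with TRIB3 at the edge of that threshold, and no member was at least 1.5-fold higher. Among the 13958 genes with at least 50 UMIs over both libraries, 14.9% were lower in the library labelled treated by 1.5-fold or more and 3.77% were higher by as much. The median log2 ratio, treated over untreated, was -0.45 over the 10 members and -0.022 over the 13958 genes. Since each group is 1 library, there is no replicate and no test between the groups, and every interval below is a 95% exact interval that covers counting error only. The interval of the ratio lay below 1 for 7 members, above 1 for 1 and held 1 for 2. Over the 13958 genes it lay below 1 for 34.7% and above 1 for 28.5%. With a pseudocount of 0.1 per 10000 counts 2 members were at least 1.5-fold lower in place of 5, and by means of the natural log values 0 were.

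**Figure D1:**
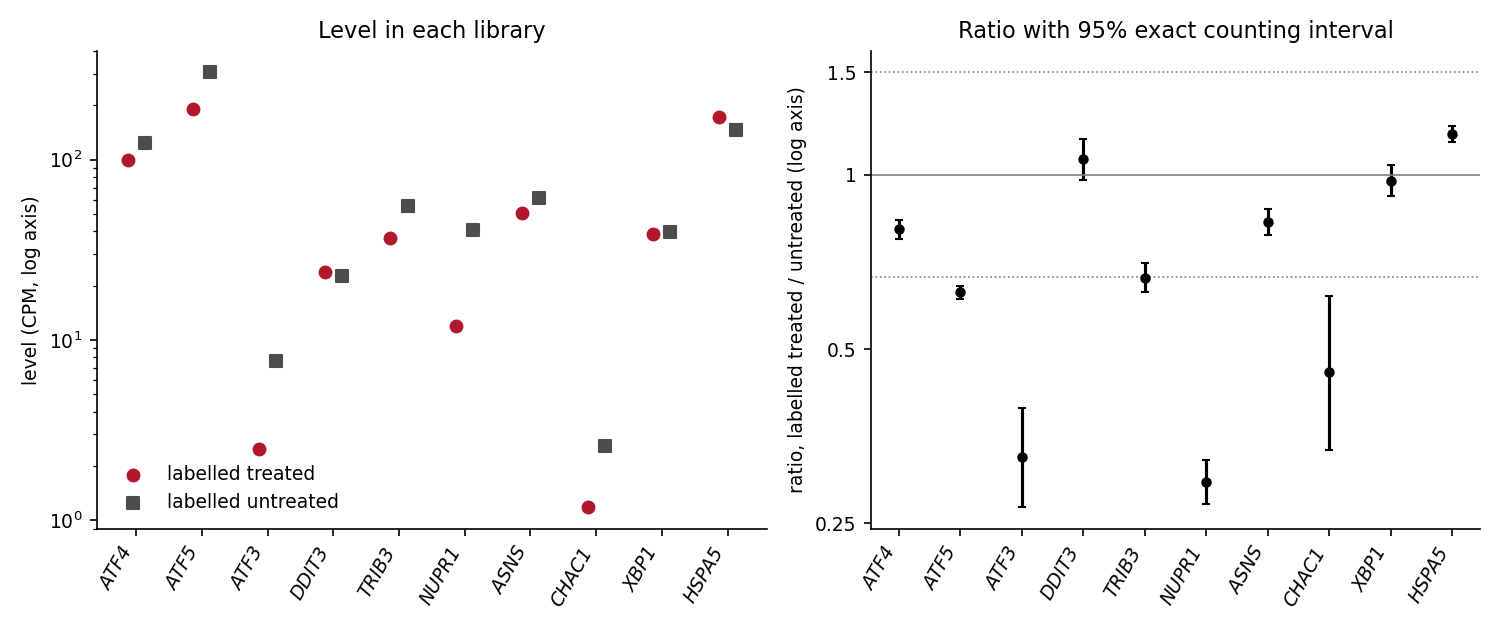
Level of the 10 genes in each library (left, CPM on a log axis) and the ratio, labelled treated over labelled untreated, with its 95% exact counting interval (right, log axis; dotted lines mark 1.5-fold either way). NUPR1, ATF3 and CHAC1 have the lowest ratios, at 0.295, 0.325 and 0.456, and HSPA5 has the highest at 1.18.

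ATF4, the bZIP factor at the centre of the integrated stress response, had 99.3 CPM in the library labelled treated and 123 CPM in the library labelled untreated, a ratio of 0.804 (0.775 to 0.834). ATF5, a related bZIP factor that is also under eIF2 control and is known for the mitochondrial stress response, had 191 CPM in the library labelled treated and 305 CPM in the library labelled untreated. Its ratio was 0.626 (0.611 to 0.642), from 11481 UMIs in the library labelled treated and 13881 in the library labelled untreated, so that it was both the most abundant member and among those past 1.5-fold. The spread of ATF5 over cells was wider than counting gives: with every cell thinned at random to 4351 UMIs and shallower cells left out, the variance of its UMIs per cell was 1.77 times the mean in the library labelled treated and 2.42 times in the library labelled untreated, where even counting alone would give 1.

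ATF3, a bZIP factor gene switched on by many kinds of stress, was rare: 149 UMIs in the library labelled treated, or 2.48 CPM, and 347 UMIs in the library labelled untreated, or 7.62 CPM. The ratio was 0.325 (0.267 to 0.395). At least 1 ATF3 UMI was found in 2.07% of cells labelled treated and 7.47% of cells labelled untreated. Among thinned cells these were 0.981% of those labelled treated and 3.19% of those labelled untreated. DDIT3, which encodes CHOP, the factor tied to cell death under lasting ER stress, had 24.0 CPM in the library labelled treated and 22.6 CPM in the library labelled untreated. Its ratio of 1.06 had an interval of 0.980 to 1.15, which holds 1, so no difference in its level over all cells was detectable at this depth.

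TRIB3, a pseudokinase induced by ATF4 and CHOP that holds both back, had 36.7 CPM in the library labelled treated and 55.3 CPM in the library labelled untreated. Its ratio was 0.664 (0.627 to 0.703), just past 1.5-fold, and in thinned cells it fell short of that threshold, at a log2 ratio of -0.51. NUPR1, a small nuclear stress protein downstream of ATF4, had the lowest ratio of the 10 genes. It had 723 UMIs in the library labelled treated, or 12.0 CPM, and 1854 in the library labelled untreated, or 40.7 CPM, a ratio of 0.295 (0.271 to 0.322). A NUPR1 UMI was found in 6.44% of cells labelled treated and 22.7% of cells labelled untreated. Among thinned cells these were 3.66% of those labelled treated and 12.2% of those labelled untreated.

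Asparagine synthetase, the product of ASNS and a classical target of ATF4, had transcripts at 50.6 CPM in the library labelled treated and 61.0 CPM in the library labelled untreated, a ratio of 0.830 (0.788 to 0.874). CHAC1, whose product breaks down glutathione and which lies downstream of ATF4, was the rarest member, with 71 UMIs in the library labelled treated, or 1.18 CPM, and 118 in the library labelled untreated, or 2.59 CPM, a ratio of 0.456 (0.335 to 0.617). Only 1.02% of cells labelled treated and 2.59% of cells labelled untreated held a CHAC1 UMI, and among thinned cells 0.516% of those labelled treated and 1.16% of those labelled untreated did.

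ATF4 binds with C/EBP factors at composite sites, and the letters TGATGNAA of that site were searched on both strands of the 250 bases upstream of RefSeq gene starts (GRCh38.p14). They occurred upstream of 3.89% of 27305 genes, and of 3 of the 9 members found in that table, ASNS, CHAC1 and ATF3. The 120 bases around each match are shown because they hold the letters through which ATF4 is known to act on ASNS, with the match in capitals and each sequence given 5′ to 3′ on the strand of its gene. The ASNS stretch lies at chr7:97872413-97872532 on the minus strand and the match is 68 to 61 bases before 1 of its 2 starts. The CHAC1 stretch lies at chr15:40953221-40953340 on the plus strand, with the match on the opposite strand 209 to 202 bases before the start. The ATF3 stretch lies at chr1:212565160-212565279 on the plus strand, with the match 191 to 184 bases before 1 of its 2 starts. A match describes letters and is not a measured binding site, and for the other members no match says only that these letters are not in these windows.
ASNS: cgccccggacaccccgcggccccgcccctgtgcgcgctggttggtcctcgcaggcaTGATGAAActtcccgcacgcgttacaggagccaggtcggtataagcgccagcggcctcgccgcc
CHAC1: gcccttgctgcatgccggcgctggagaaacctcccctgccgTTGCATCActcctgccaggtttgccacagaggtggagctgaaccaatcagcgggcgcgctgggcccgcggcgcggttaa
ATF3: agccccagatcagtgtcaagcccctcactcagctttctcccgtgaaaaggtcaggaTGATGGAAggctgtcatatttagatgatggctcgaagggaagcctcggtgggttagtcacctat

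On the ER side the levels were closer. XBP1, whose message IRE1 splices into the form that encodes the active factor, had 38.7 CPM in the library labelled treated and 39.6 CPM in the library labelled untreated, a ratio of 0.977 (0.918 to 1.04), and no difference was detectable. The 3′ counts do not tell the spliced from the unspliced message. HSPA5 encodes BiP, the Hsp70 chaperone of the ER lumen that binds the stress sensors until unfolded protein draws it away. It had 172 CPM in the library labelled treated and 147 CPM in the library labelled untreated, a ratio of 1.18 (1.14 to 1.21). An HSPA5 UMI was found in 61.9% of cells labelled treated and 60.4% of cells labelled untreated. Among thinned cells these were 45.1% of those labelled treated and 38.6% of those labelled untreated.

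HSPA5 and XBP1 were also the members whose upstream windows held the ER stress element, CCAAT and CCACG with any 9 bases between them, to which ATF6 and its partner NF-Y are known to bind. It is a rare sequence: on both strands it occurred upstream of 25 of the 27305 genes, or 0.0916%. The last 120 bases before the start are shown for both, with the element in capitals. The HSPA5 stretch lies at chr9:125241344-125241463 on the minus strand, with the element 66 to 48 bases before the start, and the XBP1 stretch lies at chr22:28800570-28800689 on the minus strand, with the element 52 to 34 bases before 1 of its 2 starts.
HSPA5: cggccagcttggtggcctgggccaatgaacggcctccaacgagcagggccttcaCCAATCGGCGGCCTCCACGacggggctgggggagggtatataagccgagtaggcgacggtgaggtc
XBP1: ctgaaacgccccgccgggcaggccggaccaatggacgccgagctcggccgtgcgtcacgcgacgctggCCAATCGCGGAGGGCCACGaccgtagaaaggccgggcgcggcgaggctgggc

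By CPM, ATF5, HSPA5, ATF4 and ASNS were the 4 most abundant members, in this order in both libraries, and DDIT3, ATF3 and CHAC1 stood below 25 CPM in both. These are shares of UMIs counted at transcript ends, 1 per captured molecule whatever the length of the transcript. The middle of the order differed. NUPR1 stood 8th in the library labelled treated at 12.0 CPM and 6th in the library labelled untreated at 40.7 CPM, next to XBP1 at 39.6 CPM. In the library labelled treated the neighbours XBP1 and TRIB3 had 2326 and 2209 UMIs, and with 1 library no spread between samples is at hand to separate neighbours.

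At the depth of thinned cells, few of these genes were detected together in a cell. For the counts of genes per cell below, the number that independent detection would give was not computed. For pairs it was, and in both libraries most pairs were found together more often than it gives, many only slightly. TRIB3 and NUPR1 were together in 65 thinned cells labelled treated, against 33.2, and 141 labelled untreated, against 94.0. NUPR1 and HSPA5 were together less often, in 90 labelled treated, against 99.3, and 161 labelled untreated, against 183. In thinned cells the median was 2 of the 10 genes in both libraries, and 5 or more were found in 129 of 6012 cells labelled treated (2.15%) and 188 of 3892 cells labelled untreated (4.83%). No UMI of any member was found in 10.8% of thinned cells labelled treated and 8.09% of those labelled untreated. ATF5 reached the highest number in a single cell, with up to 59 UMIs in a cell labelled treated and 52 in a cell labelled untreated. ATF4 reached 27 UMIs in a cell labelled treated and 13 in a cell labelled untreated, and NUPR1 reached 14 in a cell labelled treated and 11 in a cell labelled untreated. The WaGa libraries hold no cell type that should lack these genes, so the part of free RNA in the shares of cells was not tested.

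Across cells labelled untreated the members split into an ATF4 group of ATF4, ATF5, TRIB3 and NUPR1 and an ER pair of HSPA5 and XBP1. DDIT3 was tied more weakly to both. In the library labelled treated HSPA5 and XBP1 also formed a pair, but the ATF4 group was not fully set apart from DDIT3. There TRIB3 correlated with ATF4 at 0.082, below DDIT3 with ATF4 at 0.10 and with ATF5 at 0.11. DDIT3 with NUPR1 at 0.057 and with TRIB3 at 0.026 stood below all pairs within the group. Correlations of ASNS with the other members were at most 0.049 in the library labelled treated and 0.097 in the library labelled untreated. The 99th percentile over all gene pairs was 0.0523 in the library labelled treated and 0.0813 in the library labelled untreated. Correlations were taken across the 6679 cells labelled treated and the 4137 cells labelled untreated on counts adjusted for the depth of each cell, for the 8 members with at least 0.05 UMIs per cell in each library. They describe cells that share a library and the cell cycle. The genes set beside the members had the same minimum but were not matched in level, and the part of level was not tested. Of the 28 member pairs, 8 reached a correlation of 0.1 in the library labelled treated, where 0.201% of all pairs among 9108 genes did. In the library labelled untreated 13 reached it, where 0.596% of all pairs did. The median over the member pairs was 0.0476 in the library labelled treated and 0.0984 in the library labelled untreated. Over all gene pairs it was 0.000162 in the library labelled treated and 0.00032 in the library labelled untreated.

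**Figure D2:**
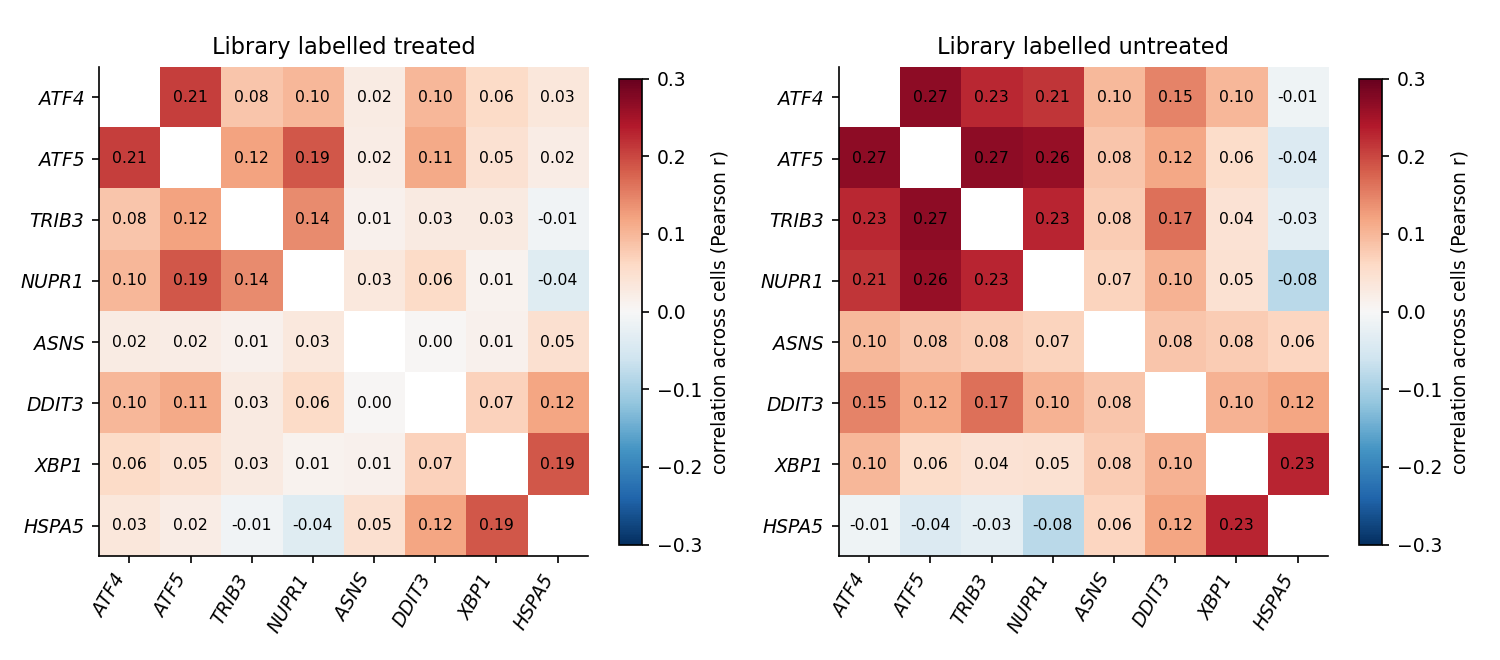
Pearson correlation across cells between 8 member genes, on counts adjusted for each cell's depth, in the library labelled treated (left) and the library labelled untreated (right); colour and number give r. ATF4, ATF5, TRIB3 and NUPR1 form a block in the library labelled untreated, with values of 0.21 to 0.27. Their values in the library labelled treated are 0.082 to 0.21, where DDIT3 has 0.10 with ATF4, 0.11 with ATF5, 0.026 with TRIB3 and 0.057 with NUPR1. HSPA5 and XBP1 form a pair at 0.19 in the library labelled treated and 0.23 in the library labelled untreated.

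Over all cells the strongest member pair was ATF4 with ATF5, at 0.21 in the library labelled treated and 0.27 in the library labelled untreated. In the library labelled untreated ATF5 with TRIB3 was practically level with it. TRIB3 correlated with ATF4 at 0.082 in the library labelled treated and 0.23 in the library labelled untreated. With ATF5, TRIB3 correlated at 0.12 in cells labelled treated and 0.27 in cells labelled untreated. NUPR1 correlated with ATF5 at 0.19 in cells labelled treated and 0.26 in cells labelled untreated. All 6 pairs among these 4 genes were lower in the library labelled treated, where the cells are shallower and the 4 genes are rarer, and the part of their lower levels was not tested. On counts thinned to the same 4351 UMIs the median over the 28 pairs was 0.0358 in the library labelled treated and 0.0657 in the library labelled untreated. A few cells weighed heavily in the library labelled treated: without the 20 cells with the most member UMIs its median was 0.0306, ATF4 with ATF5 stood at 0.13, TRIB3 with ATF4 at 0.050 and TRIB3 with ATF5 at 0.071. Without the 20 such cells of the library labelled untreated its median was 0.0929, ATF4 with ATF5 stood at 0.24, TRIB3 with ATF4 at 0.21 and TRIB3 with ATF5 at 0.25. ATF4 with ATF5 was then the strongest pair in neither library. XBP1 with HSPA5 stood at 0.18 in cells labelled treated, and ATF5 with NUPR1 at 0.27 in cells labelled untreated. With no such cells left out, the median over the 28 pairs in the library labelled untreated was 0.209 in cells called G1 and 0.0630 in cells called S.

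HSPA5 and XBP1 correlated at 0.19 in the library labelled treated and 0.23 in the library labelled untreated. HSPA5 went slightly against NUPR1, at -0.037 in the library labelled treated and -0.080 in the library labelled untreated. DDIT3 correlated with HSPA5 at 0.12 in both libraries. With ATF4 it correlated at 0.10 in cells labelled treated and 0.15 in cells labelled untreated, and with TRIB3 at 0.026 in cells labelled treated and 0.17 in cells labelled untreated. ASNS reached at most 0.05 with any member in the library labelled treated and at most 0.10 in the library labelled untreated.

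For each of the 8 members, the 3 genes of the 9108 most like it were ranked by the lower of their correlations in the libraries. The ranking put members beside each other: ATF5 came first for ATF4, NUPR1 first for TRIB3, and HSPA5 first for both XBP1 and DDIT3. CALCB, which encodes a calcitonin gene-related peptide, came first for ATF5, with 0.24 in both libraries, above ATF4. CALCB had 10.6 CPM in the library labelled treated and 49.0 CPM in the library labelled untreated. RNF187, a ubiquitin ligase gene, came next for both ATF4 and ATF5. SLC3A2, the heavy chain of amino acid transporters and itself an ATF4 target, was also near ATF4, at 0.10 in the library labelled treated and 0.15 in the library labelled untreated.

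NUPR1 was most like NEAT1, the long non-coding RNA of paraspeckles, at 0.20 in both libraries, followed by ATF5 and the calcium-binding protein gene S100A14. NEAT1 was also among the 3 genes nearest to TRIB3. HSPA5 had the highest correlations of all members in this ranking, and the part of its level and of its partners' levels was not tested. It correlated with MANF, an ER protein of the unfolded protein response, at 0.37 in cells labelled treated and 0.41 in cells labelled untreated. With HSP90B1, the ER member of the Hsp90 family, it correlated at 0.36 in cells labelled treated and 0.42 in cells labelled untreated. With HLA-C, an MHC class I gene whose reads can be shared with related HLA genes, it correlated at 0.38 in cells labelled treated and 0.33 in cells labelled untreated. MANF and HLA-C were near XBP1 as well. HERPUD1, a gene of ER-associated degradation, was near DDIT3, at 0.11 in cells labelled treated and 0.20 in cells labelled untreated. The genes nearest to ASNS held no member: they were the chaperonin subunit gene CCT5, the lactate dehydrogenase gene LDHB and the actin gene ACTB, at 0.14 to 0.16.

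Genes with the ER stress element were set beside HSPA5 in the same way. Of the 25 genes with the element, 20 were found in the table, ERO1B under its older symbol ERO1LB, and 12, XBP1 included, had a correlation with HSPA5. Of these, 5 reached 0.1 in both libraries, CALR, CANX, HSP90B1, PDIA6 and XBP1, where 0.549% of 9107 genes did. The first of them encodes calreticulin, the second calnexin and the fourth a protein disulfide isomerase. CALR correlated with HSPA5 at 0.32 in cells labelled treated and 0.36 in cells labelled untreated, and PDIA6 at 0.20 in cells labelled treated and 0.29 in cells labelled untreated. The other 7 had values from -0.018 to 0.095 and included CRELD2 and SERP1, both ER stress genes, and ERO1LB. The median over the 12 was 0.0415 in the library labelled treated and 0.0644 in the library labelled untreated, and over the 9107 genes it was 0.000746 in the library labelled treated and 0.00214 in the library labelled untreated.

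Cells with a CHAC1 UMI showed the ATF4 group at higher levels in both libraries. There were 68 such cells labelled treated and 107 labelled untreated. In the library labelled treated NUPR1 stood at 72.1 CPM in cells with CHAC1 and 11.3 CPM in the others, 6.38 times as high (4.72 to 8.47), and in the library labelled untreated at 102 CPM and 39.0 CPM, 2.62 times (2.16 to 3.14). The first of these values rests on 52 NUPR1 UMIs in the 68 cells, and their spread over single cells was not examined. DDIT3 was 1.93 times as high in cells with CHAC1 (1.32 to 2.72) in the library labelled treated and 2.58 times (1.99 to 3.30) in the library labelled untreated. ATF4 was 1.72 times as high in the library labelled treated and 1.79 times in the library labelled untreated. ASNS was 1.66 times as high in cells with CHAC1 (1.26 to 2.14) in the library labelled treated and 1.33 times (1.08 to 1.63) in the library labelled untreated. XBP1 was 1.63 times as high in them (1.18 to 2.18) in the library labelled treated and 1.34 times (1.03 to 1.72) in the library labelled untreated. HSPA5 was lower in them only in the library labelled untreated: it stood at 204 CPM in cells with CHAC1 and 172 CPM in the others in the library labelled treated, 1.18 times as high (0.999 to 1.39), and at 108 CPM in cells with CHAC1 and 148 CPM in the others in the library labelled untreated, 0.729 times (0.609 to 0.867). Cells with CHAC1 were somewhat deeper, with a median of 10076 UMIs against 8567 in the library labelled treated and 11571 against 11103 in the library labelled untreated. CCNB1, the mitotic cyclin gene, was 1.13 times as high in them (0.922 to 1.36) in the library labelled treated. In the library labelled untreated it was 0.421 times as high (0.340 to 0.515). Of those deep enough to thin, 3 were called G1, 33 S and 27 G2/M in the library labelled treated. In the library labelled untreated 15 were called G1, 69 S and 19 G2/M. The part of phase in the HSPA5 values was not tested.

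**Figure D3:**
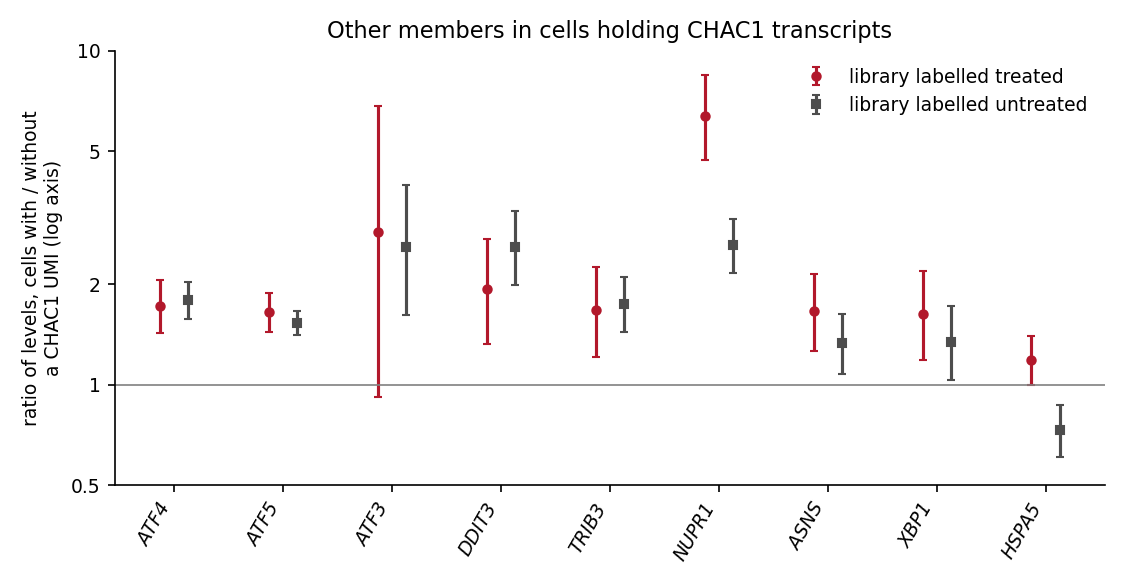
Ratio of the level of each other member in cells with a CHAC1 UMI to its level in cells without one, with 95% exact counting intervals on a log axis, for the library labelled treated (68 cells with CHAC1) and the library labelled untreated (107 cells). NUPR1 has the highest ratio in the library labelled treated at 6.38, and HSPA5 is below 1 in the library labelled untreated at 0.729.

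Cells with an ATF3 UMI were likewise high in NUPR1. The 138 cells labelled treated with an ATF3 UMI had NUPR1 at 49.6 CPM, against 11.1 CPM in the others, and the 309 cells labelled untreated had it at 84.8 CPM, against 36.8 CPM in the others. ASNS did not differ by ATF3 beyond counting error, at 0.926 times (0.720 to 1.17) in the library labelled treated and 0.964 times (0.836 to 1.11) in the library labelled untreated. Cells with ATF3 were deeper, with a median of 10475.5 UMIs against 8535 in those labelled treated and 12401 against 10956.5 in those labelled untreated. CCNB1 was 0.644 times as high in those labelled treated and 0.387 times in those labelled untreated. Of those labelled untreated 22 were called G1, 201 S and 78 G2/M. The part of depth and phase in the NUPR1 values was not tested.

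DDIT3 had a similar level in both libraries but a different spread. Cells with 4 or more DDIT3 UMIs numbered 4 of 6679 in the library labelled treated (0.0599%, 0.0163% to 0.153%) and 26 of 4137 in the library labelled untreated (0.628%, 0.411% to 0.920%). They held 1.46% of DDIT3 UMIs in the library labelled treated and 12.5% in the library labelled untreated. In thinned cells the variance of DDIT3 was 1.05 times its mean in the library labelled treated and 1.58 times in the library labelled untreated. With these cells set aside, DDIT3 stood at 23.7 CPM in the library labelled treated and 19.9 CPM in the library labelled untreated. The cells were chosen by their own DDIT3 UMIs, so leaving them out lowers DDIT3 more where they hold more of it. No difference in level between the libraries is read from these 2 values.

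The 26 DDIT3-rich cells labelled untreated were high in every other member. CHAC1 stood at 31.2 CPM in them and 2.41 CPM in the others, 12.97 times as high (5.78 to 25.5, from 9 UMIs). TRIB3 stood at 184 CPM in them and 54.5 CPM in the others, and NUPR1 at 146 CPM in them and 40.0 CPM in the others. ASNS, whose correlations with members over all cells labelled untreated were at most 0.097, stood at 142 CPM in them and 60.5 CPM in the others. HSPA5 was 1.64 times as high in them (1.27 to 2.08) and XBP1 2.03 times (1.28 to 3.05). CCNB1 was 1.62 times as high in them (1.29 to 2.01). The part of phase in the HSPA5 and XBP1 values was not tested. These levels were pooled over the 26 cells. They do not show whether single cells were high in both the ATF4 group and the ER pair. The 26 cells had a median of 8369 UMIs, against 11138 in the others, and a mitochondrially encoded share of 4.14%, against 4.97%. They were called 6 in G1, 8 in S and 10 in G2/M among those deep enough to thin. The 4 such cells labelled treated are too few to describe.

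Cells rich in NUPR1 were low in HSPA5. Those with 4 or more NUPR1 UMIs numbered 37 labelled treated, of which 27 were called S, and 120 labelled untreated, of which 92 were called S. Such cells were deeper than the others, with a median of 11746 UMIs, against 8566, in the library labelled treated and 12936.5, against 11016, in the library labelled untreated. HSPA5 stood in them at 99.9 CPM, against 173 CPM in the others, in the library labelled treated and at 75.8 CPM, against 149 CPM in the others, in the library labelled untreated. CCNB1 was 0.208 times as high in them (0.108 to 0.364) in the library labelled treated. In the library labelled untreated it was 0.138 times as high (0.0996 to 0.187). The part of phase in the lower HSPA5 was not tested. Cells with 10 or more HSPA5 UMIs numbered 65 labelled treated, of which 38 were called G2/M, and 73 labelled untreated, of which 57 were called G2/M. Their median was 13251 UMIs, against 8547 in the others, in the library labelled treated and 17047, against 11032, in the library labelled untreated, as a minimum in UMIs favours deep cells. XBP1 was 2.42 times as high in them (1.90 to 3.03) in the library labelled treated and 2.72 times (2.25 to 3.27) in the library labelled untreated. NUPR1 was 0.491 times as high in those labelled treated, with an interval of 0.159 to 1.15 from 5 UMIs, and 0.365 times as high in those labelled untreated (0.216 to 0.578). CCNB1 was 3.29 times as high in the HSPA5-rich cells labelled treated and 3.89 times in those labelled untreated.

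HSPA5 differed between the libraries in opposite directions by called phase. Of thinned cells, 6.12% of those labelled treated were called G1, 46.6% S and 47.3% G2/M, and of those labelled untreated 10.6% were called G1, 55.0% S and 34.4% G2/M. In cells called G1 HSPA5 had 203 CPM in the library labelled treated and 111 CPM in the library labelled untreated, a ratio of 1.83 (1.61 to 2.09). In cells called S it had 187 CPM in the library labelled treated and 123 CPM in the library labelled untreated, a ratio of 1.52 (1.45 to 1.59). In cells called G2/M the order turned, with 160 CPM in the library labelled treated and 187 CPM in the library labelled untreated, a ratio of 0.858 (0.820 to 0.897). HSPA5 was thus lowest in G2/M among cells labelled treated and highest in G2/M among cells labelled untreated. With each library scored alone the ratio was 1.63 in G1 and 0.863 in G2/M. The calls rest on transcripts of cycle genes, and the part of free RNA in them was not tested.

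**Figure D4:**
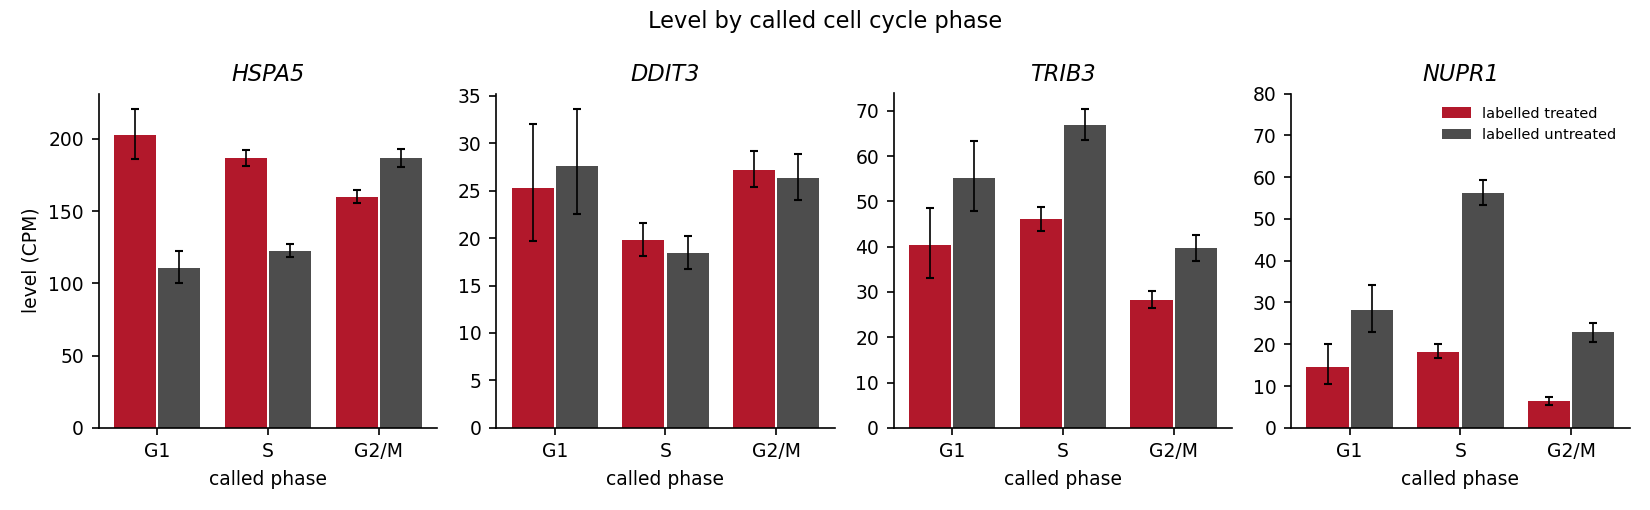
Level (CPM) of HSPA5, DDIT3, TRIB3 and NUPR1 in cells called G1, S and G2/M in the library labelled treated (left bar of each pair) and the library labelled untreated (right bar), with 95% exact counting intervals. HSPA5 is higher in the library labelled treated in G1 and S and lower in G2/M, while NUPR1 and TRIB3 are lower in the library labelled treated in all 3 phases and DDIT3 is close in each.

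ATF4, ATF5, TRIB3 and NUPR1 were lower in the library labelled treated in every phase. NUPR1 was highest in S in both libraries, at 18.3 CPM in the library labelled treated and 56.3 CPM in the library labelled untreated, and its ratio was 0.521 in G1, 0.325 in S and 0.279 in G2/M. With each library scored alone its ratio was 0.295 in G1, 0.342 in S and 0.275 in G2/M, so no order of the phases is read from it. TRIB3 was also highest in S, at 46.1 CPM in the library labelled treated and 66.9 CPM in the library labelled untreated, and its ratio was between 0.690 and 0.730 in the 3 phases. ATF5 had ratios of 0.743 in G1, 0.614 in S and 0.622 in G2/M. DDIT3 had ratios of 0.916, 1.07 and 1.03 in G1, S and G2/M, each with an interval that holds 1. With each library scored alone its ratio in G1 was 0.693 (0.497 to 0.968), which does not hold 1. CHAC1 had a ratio of 0.886 in G2/M from 30 UMIs in the library labelled treated and 20 in the library labelled untreated, with an interval of 0.487 to 1.65, and lower ratios in G1 and S, at 0.201 (0.0383 to 0.678) and 0.414 (0.266 to 0.633).

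Cells of each library were also put into 3 equal groups by their UMIs, and NUPR1 and ATF3 were lower among cells labelled treated in each of them. NUPR1 had ratios of 0.301 in the shallowest cells, 0.206 in the middle and 0.362 in the deepest. DDIT3 had 26.6 CPM in the shallowest, 23.4 in the middle and 23.3 in the deepest cells labelled treated, and 31.4, 18.7 and 21.8 CPM in those labelled untreated, so its ratio was 0.847 (0.717 to 1.001), 1.26 (1.08 to 1.46) and 1.07 (0.949 to 1.20). HSPA5 had ratios of 1.24 (1.15 to 1.33) in the shallowest cells, 1.38 (1.30 to 1.45) in the middle and 1.04 (0.990 to 1.08) in the deepest, where the interval holds 1. CHAC1 was flat in the library labelled treated, at 1.22, 1.096 and 1.22 CPM, and was highest in the shallowest cells of the library labelled untreated, at 4.41, 2.43 and 1.98 CPM.

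The wider pathway was described with 12 lists of genes, and for each the number past 1.5-fold is read against the shares of 14.9% lower and 3.77% higher over all measured genes. Upstream of ATF4, none of 11 measured genes of eIF2 kinases and phosphatase subunits was past 1.5-fold either way, with a median log2 ratio of 0.13. EIF2AK4, the kinase GCN2 that senses uncharged tRNA, had the lowest ratio at 0.669 (0.609 to 0.735), and PPP1R15A, the phosphatase subunit GADD34, stood at 24.0 CPM in the library labelled treated and 19.6 CPM in the library labelled untreated, a ratio of 1.22. IMPACT, an inhibitor of GCN2, had a ratio of 0.794, and PPP1CA, a catalytic phosphatase subunit, of 1.15. None of 9 genes of a list that held the subunits of eIF2 and of its exchange factor eIF2B, and EIF2A, a separate initiation factor, was past 1.5-fold, with a range from 0.902 for EIF2S3 to 1.30 for EIF2B4, and with EIF2B2 at 0.926 and EIF2S2 at 1.17, and a median log2 ratio of 0.057. Of 12 measured bZIP partners of ATF4, 3 were lower and 1 higher, with a median log2 ratio of -0.14. The 3 were BATF3 at 0.108 (0.0836 to 0.137), CEBPB at 0.598 (0.551 to 0.648) and JUN at 0.625, and the 1 was FOS, with 48 UMIs in the library labelled treated and 10 in the library labelled untreated, a ratio of 3.64 (1.82 to 8.06). CEBPD had a ratio of 1.40.

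**Figure D5:**
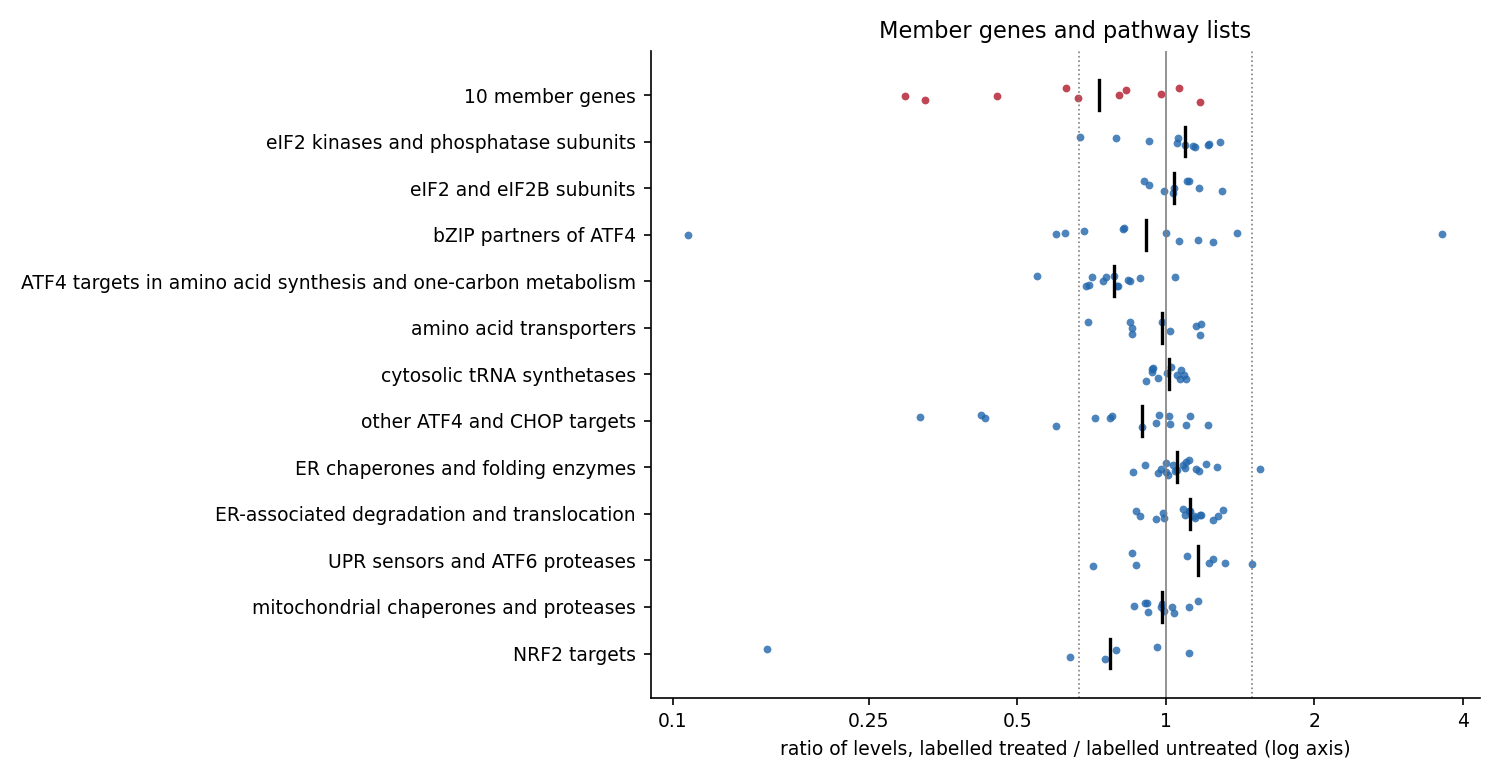
Ratio of levels, library labelled treated over library labelled untreated, on a log axis for the 10 members (red, top) and the measured genes of 12 pathway lists (blue), each point a gene; black bars mark medians and dotted lines 1.5-fold either way. Of the 13 amino acid synthesis genes 12 sit below 1, and the ER and tRNA synthetase lists sit around 1.

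Downstream of ATF4, the lists differed in their medians. Of 13 genes of amino acid synthesis and one-carbon metabolism, 12 had a ratio below 1, as had 52.6% of all measured genes, with a median log2 ratio of -0.35. Only 1 of the 13 was at least 1.5-fold lower, no larger a share than over all measured genes. That gene was PSPH, the phosphatase of serine synthesis, with 824 UMIs in the library labelled treated and 1139 in the library labelled untreated, a ratio of 0.548 (0.5003 to 0.600). PHGDH, the first enzyme of the same pathway, had 155 CPM in the library labelled treated and 221 CPM in the library labelled untreated, a ratio of 0.700. None of 9 measured amino acid transporters was past 1.5-fold, with SLC1A5 at 0.696, SLC3A2 at 0.848, SLC38A2 at 1.17 and SLC43A1 at 1.18 and a median log2 ratio of -0.027. None of 12 cytosolic tRNA synthetases was either, and their ratios ran from 0.912 for YARS to 1.099 for EPRS, with GARS at 0.939 and NARS at 1.09 and a median log2 ratio of 0.021. Of 15 other measured targets of ATF4 and CHOP, 4 were lower and none higher, with a median log2 ratio of -0.16. They were BBC3, the apoptosis gene PUMA, at 0.318 (0.277 to 0.364), DDIT4, an inhibitor of mTORC1, at 0.429 (0.408 to 0.452), SESN2, another inhibitor of mTORC1, at 0.421 (0.345 to 0.514), and CEBPB, which is on the partner list as well. XPOT, the exporter of tRNA, had a ratio of 1.12. BBC3 and SESN2 are also known as p53 targets.

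On the ER side, 1 of 19 chaperone and folding genes was past 1.5-fold, HYOU1, an ER nucleotide exchange factor for BiP, with 15.1 CPM in the library labelled treated and 9.68 CPM in the library labelled untreated, a ratio of 1.56 (1.39 to 1.75). ERO1LB, an ER oxidase gene, had a ratio of 1.27, while HSP90B1 stood at 0.860 and SDF2L1 at 0.907, and the median log2 ratio was 0.075. None of 16 measured genes of ER-associated degradation and translocation was past 1.5-fold, with a median log2 ratio of 0.16, with EDEM2 at 0.872, DERL2 at 0.886, OS9 at 1.28 and VCP at 1.17. None of 8 sensors and ATF6 proteases was past 1.5-fold, but ATF6B, a relative of ATF6, came next to it at 1.496 (1.41 to 1.58), and MBTPS1, the protease that first cleaves ATF6, stood at 1.32, with a median log2 ratio of 0.22. ATF6 itself had a ratio of 0.871 and CREB3, a related ER-bound factor, of 0.854. Of 11 mitochondrial chaperones and proteases none was past 1.5-fold, with HSPA9 at 0.864, HSPD1 at 0.907, CLPX at 1.12 and LONP1 at 1.16 and a median log2 ratio of -0.025. Of 6 measured targets of NRF2, the factor of oxidative stress, 2 were at least 1.5-fold lower, with a median log2 ratio of -0.37: HMOX1, haem oxygenase, with 55 UMIs in the library labelled treated and 268 in the library labelled untreated, a ratio of 0.155 (0.114 to 0.208), and NQO1, a quinone reductase, at 0.639.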

How the data were processed

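Single-cell transcriptomes of WaGa cells were measured in 2 libraries, 1 per group. The authors deposited 1 table of natural log values, the natural log of 1 plus counts per 10000 counts of the cell, made, per the submitters' processing notes, with Cell Ranger, Seurat and the build hg19. The annotation, the filters on cells and the treatment of reads shared by near-identical genes, such as HLA genes or processed pseudogenes, are not given in the sources used here. Cells were assigned by the treatment word in their names, and 0 columns had no sample. Within a cell, 1 UMI was set to the lowest value above 0 after back-transformation; 100% of values were then whole within a tolerance of 1e-06. The libraries shared 48 barcodes, which were treated as different cells.

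UMIs were summed per gene and library and divided by the library total. Ratios and shares have 95% exact Clopper-Pearson intervals, which cover counting error only, and a gene counted as measured with at least 50 UMIs over both libraries. Correlations used analytic Pearson residuals (theta of 100). For some comparisons each cell was thinned at random to 4351 UMIs (the 10th percentile in the library of lower depth), which left out 667 cells labelled treated and 245 labelled untreated. Phases were called with scanpy from 40 S and 54 G2/M genes on thinned cells. Doublets were not called; an alternative leaves out the deepest 5% of cells. Upstream windows come from RefSeq (GRCh38.p14), a build other than that of the counts; NUPR1 had no entry. Symbols of genes with the ER stress element were also looked up by their RefSeq synonyms.

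The members, the lists and the tests were chosen with earlier results of these data known. The rule for named genes took all 10 members, up to 2 genes at each end of every list by the interval bound nearest to 1, and the 3 genes most like each member; other genes, the groups of cells rich in CHAC1, ATF3, DDIT3, NUPR1 or HSPA5, and both sequence motifs were picked after values were seen. The scripts were tested on simulated data. Python 3.11.15, numpy 2.4.6, scipy 1.17.1, pandas 2.3.3, scanpy 1.11.5 and matplotlib 3.10.9 were used.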

Additional observations from a re-analysis of the deposited data

Results flagged for a closer look

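HSPA5 was flagged because its ratio, labelled treated over labelled untreated, lay on opposite sides of 1 in different called phases. It was 1.83 in cells called G1 and 1.52 in cells called S, against 0.858 in cells called G2/M. The difference between phases was not tested, since each group had 1 library.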

How the results depend on the processing

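The 7 genes ASNS, ATF3, ATF4, ATF5, CHAC1, NUPR1 and TRIB3 were lower in the library labelled treated under all 16 alternatives run for each. DDIT3 was lower in 4 of 16 and XBP1 in 12 of 16. HSPA5 was higher in 14, and its log2 ratio reversed to -0.22 in cells called G2/M and to -0.21 with the phases scored in each library alone, an alternative chosen after seeing the data. The count of members at least 1.5-fold higher was 1 in place of 0 in cells called G1 and in cells called S, by either scoring. The count at least 1.5-fold lower was 2 in place of 5 with a pseudocount of 0.1 per 10000, 0 with means of the natural log values, 3 in cells called G1 or G2/M by either scoring, and 3 with a minimum of 500 UMIs, which 8 members reach. The median log2 ratio of -0.45 was -0.26 with the pseudocount, -0.072 with the log means and -0.29 with that minimum. Both scales shrink the ratios of low genes by construction; the cause of the other shifts was not tested. The median member correlation was 0.0213 in the library labelled treated and 0.0387 in the library labelled untreated by Spearman rank on thinned counts, and 0.0306 in the library labelled treated without 20 cells. It was 0.209 in G1 cells and 0.0630 in S cells labelled untreated. No library could be left out, with 1 per group. No paired analysis was possible because each group has 1 library and the labels give no replicate numbers. Depth limits CHAC1 and ATF3 most, at 71 and 149 UMIs in the library labelled treated.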
